A study of Mus musculus with 2 samples.

Results

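Hedgehog signaling was followed through 7 genes chosen by name: the secreted ligand *Shh*, its receptor *Ptch1*, the signal transducer *Smo*, the transcription factors *Gli1*, *Gli2* and *Gli3*, and *Hhip*, which encodes a ligand-binding inhibitor. All 7 of 7 were found among the 27254 genes of the joined count tables, and the rule that names them uses no measured value. The cells came from dissociated whole lung of wt C57BL/6J mice at PND1, the first day after birth, and were profiled by Drop-seq, which captures the RNA of single cells on barcoded beads. There were 2 groups of cells, Batch 1 and Batch 2, each taken from 1 female mouse, and no treatment, mutant or second age was compared. The comparisons are therefore between cell types of the same lungs.

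In the lung, the Hedgehog ligand is secreted by epithelial cells and received by neighbouring mesenchymal cells. Binding of the ligand to Ptch1 relieves the block on Smo, and GLI factors then carry the signal to the nucleus. *Gli1*, *Ptch1* and *Hhip* are themselves classical targets of the pathway, and Ptch1 and Hhip proteins both hold back the ligand.

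After cells with more than 10% mitochondrial UMIs (unique molecular identifiers, each marking 1 captured RNA molecule) were left out, 2388 cells with 4432553 UMIs remained in Batch 1 and 5615 cells with 18232639 UMIs in Batch 2. The median cell held 1386.5 UMIs in Batch 1 and 2014 UMIs in Batch 2, and 0 cell barcodes were shared. Cells were grouped without the Hedgehog genes into 34 clusters, which were given names only from marker genes, so AT1 (flat alveolar type 1 cells), AT2 (surfactant-making type 2 cells), MatrixFB-1 and the like stand for "AT1-like", "AT2-like" and "MatrixFB-1-like" throughout. Of 1915 Batch 1 cells with a listed type that has a counterpart here, 1783 (93.1%) fell in that counterpart. The weakest counterpart was MatrixFB-2, the collagen-rich matrix fibroblasts, with 47 of 79 listed cells. Some listed types had several counterparts. Listed MyoFB-2 cells, myofibroblasts that also bear smooth muscle markers, were counted as matched in the MyoFB or the smooth muscle class (55 of 57). The smooth muscle class held 91 Batch 1 cells, of which 34 were listed as Smooth Muscle, so it may also hold MyoFB-2 cells. MatrixFB-1, the *Tcf21*-bearing matrix fibroblasts, came mostly from a *Mfap4*-led cluster in Batch 1 (838 of 897 cells) and from an *Inmt*-led cluster in Batch 2 (918 of 1179 cells), so values within this class are given per batch. Epithelium held 335 and 1477 cells, endothelium 577 and 1525, mesenchyme 1199 and 1966, and immune cells 176 and 525, in Batch 1 and Batch 2 respectively, the order used for all paired values that follow. Levels are UMIs of a gene per 10000 UMIs of the class, and their intervals (95% exact Poisson) and the Wilson intervals of shares cover counting error only.

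*Shh* was found mostly in the epithelium. This gene (GRCm38 chromosome 5, 28456815 to 28467256, minus strand) gave 99 UMIs in Batch 1 and 340 in Batch 2, of which 82 (82.8%) and 328 (96.5%) lay in epithelial cells. Epithelium held 14.0% and 26.3% of the cells and 20.8% and 45.1% of all UMIs. The epithelial level was 0.887 per 10000 (interval 0.706 to 1.10) in Batch 1 and 0.399 (0.357 to 0.444) in Batch 2. The mesenchyme held 0 and 4 *Shh* UMIs, and the 0 of Batch 1 allows a level of up to 0.0174 per 10000. Epithelial levels of both batches thus lay above every mesenchymal level, while the batches differed from each other beyond counting error. Exons of *Shh* overlap 2 opposite-strand genes, *9530036O11Rik* (10 and 43 epithelial UMIs) and *Gm26894* (8 and 71), and whether the counting used strand is not given in the sources used here, so their reads cannot be told apart from those of *Shh*.

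At least 1 *Shh* UMI was seen in 67 of the 335 epithelial cells of Batch 1 (Wilson interval 16.1 to 24.6%) and in 14.3% (12.6 to 16.2%) of those of Batch 2. In immune cells, which should lack the gene, detection was 0% and 0.190%, at median depths of 1398.5 and 1827 UMIs against 2237 and 3569 in epithelium. With every cell thinned to 600 UMIs, *Shh* was seen in 5.67% and 1.83% of epithelial cells. Epithelial detection stood above the immune share in both batches.

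Within the epithelium, *Shh* was present in all alveolar classes and in the airway class, so the sending cells were not limited to 1 cell type. AT1 cells carried 1.27 per 10000 (0.766 to 1.99, 19 UMIs) and 0.551 (0.388 to 0.759, 37 UMIs). AT1/AT2 cells, which bear markers of both alveolar types, carried 1.14 (0.767 to 1.62, 30 UMIs) and 0.411 (0.347 to 0.483, 147 UMIs). AT2 cells carried 0.654 (0.441 to 0.934, 30 UMIs) and 0.181 (0.131 to 0.245, 42 UMIs). The order AT1, AT1/AT2, AT2 held in each batch. The counting intervals of the neighbours AT1 and AT1/AT2 overlapped in both batches, whereas those of AT1 and AT2 overlapped in Batch 1 and were apart in Batch 2.

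The cluster with ciliated and club cell markers, the multiciliated and secretory cells of the airways, held 0.624 *Shh* UMIs per 10000 (0.499 to 0.771) in the 90 cells of Batch 2 and 0.709 (0.146 to 2.07) in the 9 cells of Batch 1. Its Batch 2 level lay close to that of AT1 and above those of AT1/AT2 and AT2, with separate intervals for the latter 2. A separate club cluster held 0 and 16 *Shh* UMIs in 4 and 29 cells, with 0.563 per 10000 (0.322 to 0.915) and detection in 9 of the 29 cells in Batch 2. Raw detection was 39.3% and 25.2% in AT1/AT2 cells and 33.3% in both batches in the ciliated and club cluster, and lower in AT1 (18.2% and 10.8%) and AT2 (14.8% and 5.59%). After thinning to 600 UMIs the Batch 1 shares were 7.79% in AT1, 10.7% in AT1/AT2, 11.1% in the 9 airway cells and 3.17% in AT2. The Batch 2 shares were 3.61% in AT1, 1.96% in AT1/AT2, 2.22% in the ciliated and club cluster and 0.932% in AT2. AT1/AT2 cells were deep (medians of 4213.5 and 6592 UMIs), and their place ahead of AT1 was seen in raw detection and not in the Batch 2 thinned shares or in the levels. An unnamed cluster with markers of both AT1 and endothelium added 14 and 3 *Shh* UMIs in 28 and 7 cells, at 0.894 and 0.884 per 10000. It held 14.1% and 0.882% of all *Shh* UMIs and lay outside the epithelial counts. The study took clusters with markers of more than 1 major cell type for likely doublets. Whether this cluster holds such doublets was not tested.

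**Figure D1:**
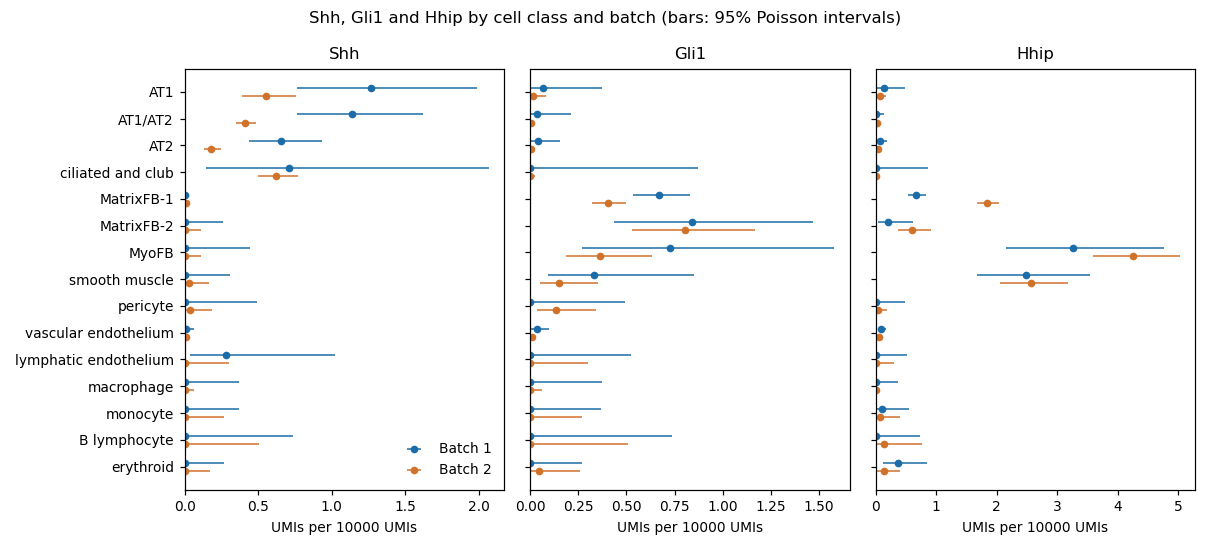
Levels of *Shh*, *Gli1* and *Hhip* (UMIs per 10000 UMIs) on the horizontal axes for 15 cell classes on the vertical axis, with 1 point per batch and 95% exact Poisson intervals as bars. In each batch the highest *Shh* points lie in the epithelial rows and the highest *Gli1* points in the fibroblast and smooth muscle rows. Lymphatic endothelium held *Shh* at 0.284 in Batch 1, on 2 UMIs, and pericytes *Gli1* at 0.134 in Batch 2. *Hhip* reached 3.27 and 4.26 in MyoFB.

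The receptor *Ptch1* was too sparse to place. It lies on chromosome 13 (63508328 to 63573598, minus strand), and it gave 14 and 31 UMIs in all. Mesenchyme held 12 and 9 of these (0.0695 and 0.0246 per 10000), epithelium 1 and 16 (0.0108 and 0.0195), endothelium 1 and 5, and immune cells 0 and 1. The mesenchymal level was the highest of the 4 lineages in each batch, but its interval overlapped that of epithelium in both (0.0359 to 0.121 against 0.000274 to 0.0603, and 0.0113 to 0.0468 against 0.0111 to 0.0316). In MatrixFB-1 there were 11 and 6 UMIs, and of the 16 epithelial UMIs of Batch 2, 11 lay in AT1/AT2 cells.

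*Smo*, the 7-pass membrane protein that carries the signal inward (chromosome 6, 29735503 to 29761365, plus strand), was spread more broadly, with the mesenchyme highest. It gave 73 and 159 UMIs, with 0.289 per 10000 (0.215 to 0.382) and 0.197 (0.154 to 0.248) in mesenchyme. Epithelium held 0.0649 (0.0238 to 0.141) and 0.0754 (0.0578 to 0.0966), and endothelium 0.102 (0.0511 to 0.183) and 0.0477 (0.0299 to 0.0722). The mesenchymal intervals lay apart from the epithelial and the endothelial ones in both batches. Mesenchymal detection was 3.84% and 3.56% (1.83% and 1.32% after thinning), against 0.568% and 0% in immune cells. Among mesenchymal classes the *Smo* levels were 0.281 and 0.171 in MatrixFB-1, 0.280 and 0.269 in MatrixFB-2, 0.121 and 0.272 in MyoFB (myofibroblasts), 0.746 and 0.151 in smooth muscle, and 0 and 0.202 in pericytes, the cells that wrap capillaries. The order of these classes differed between the batches.

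*Gli1*, the GLI factor whose own transcription follows pathway activity, marked the mesenchyme. The gene (chromosome 10, 127329882 to 127341974, minus strand) gave 120 and 152 UMIs, of which 108 (90.0%) and 138 (90.8%) were mesenchymal. Its level was 0.625 per 10000 (0.513 to 0.755) and 0.378 (0.317 to 0.446) in mesenchyme, against 0.0433 and 0.00486 in epithelium (4 UMIs each) and 0.0279 and 0.0130 in endothelium (3 and 6 UMIs). Both mesenchymal values lay well above every value of the other lineages. Detection was 8.09% and 6.31% of mesenchymal cells, 2.84% and 2.24% after thinning, against 1.14% and 0% of immune cells, whose median depth (1398.5 and 1827 UMIs) was above the mesenchymal one (1267 and 1661).

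Within the mesenchyme *Gli1* was highest in MatrixFB-2, at 0.841 (0.435 to 1.47, 12 UMIs) and 0.806 (0.531 to 1.17, 27 UMIs). MatrixFB-1 held 0.670 (0.536 to 0.828, 86 UMIs) and 0.403 (0.322 to 0.497, 87 UMIs), MyoFB 0.727 (6 UMIs) and 0.363 (12 UMIs), and smooth muscle 0.332 (4 UMIs) and 0.151 (5 UMIs). Pericytes held 0 UMIs in Batch 1, which allows up to 0.402 per 10000, and 4 UMIs (0.134) in Batch 2. The intervals of MatrixFB-2 and MatrixFB-1 overlapped in Batch 1 and were apart in Batch 2, and those of MatrixFB-1 and MyoFB overlapped in both. Exons of *Gli1* overlap the opposite-strand genes *Arhgap9* and *Gm47200*, with the same limit on strand. The limit also holds for *Gli3* and *Hhip*, whose exons overlap the opposite-strand *Gm6556* and *Gm27820*. *Arhgap9* lay in immune cells (32 and 110 UMIs) and gave 4 and 2 UMIs in mesenchyme, while *Gli1* gave 2 and 0 UMIs in immune cells, both of them in neutrophils.

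*Gli2*, an activator that acts upstream of *Gli1*, and *Gli3*, which is also processed to a repressor, were rarer. *Gli2* (chromosome 1, 118834132 to 119053619, minus strand) gave 29 and 12 UMIs, with 24 in the mesenchyme of Batch 1 (0.139 per 10000, 0.0890 to 0.207) and 6 in that of Batch 2 (0.0164, 0.00603 to 0.0358). The batches did not overlap, and most of the gap lay in MatrixFB-1, with 20 UMIs in Batch 1 and 2 in Batch 2. *Gli3* (chromosome 13, 15463235 to 15730026, plus strand) gave 54 and 129 UMIs. Its mesenchymal level was 0.197 (0.136 to 0.275) and 0.137 (0.102 to 0.180), above endothelium at 0.0838 (0.0383 to 0.159) and 0.0325 (0.0182 to 0.0536). Epithelium held 0.0433 (0.0118 to 0.111) and 0.0705 (0.0535 to 0.0912), below the mesenchymal interval in both batches. The endothelial interval overlapped the mesenchymal one in Batch 1 and lay below it in Batch 2. Of the 58 epithelial *Gli3* UMIs in Batch 2, 24 lay in AT1/AT2 cells, 17 in the ciliated and club cluster (14.4% of its 90 cells, 1.11% after thinning) and 13 in AT2 cells. Beside these 58 UMIs and 62 of *Smo*, the Batch 2 epithelium held 4 *Gli1* and 1 *Gli2* UMIs. In the Batch 1 epithelium all 4 genes were sparse, with 4 UMIs of *Gli3*, 6 of *Smo*, 4 of *Gli1* and 1 of *Gli2*.

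**Figure D2:**
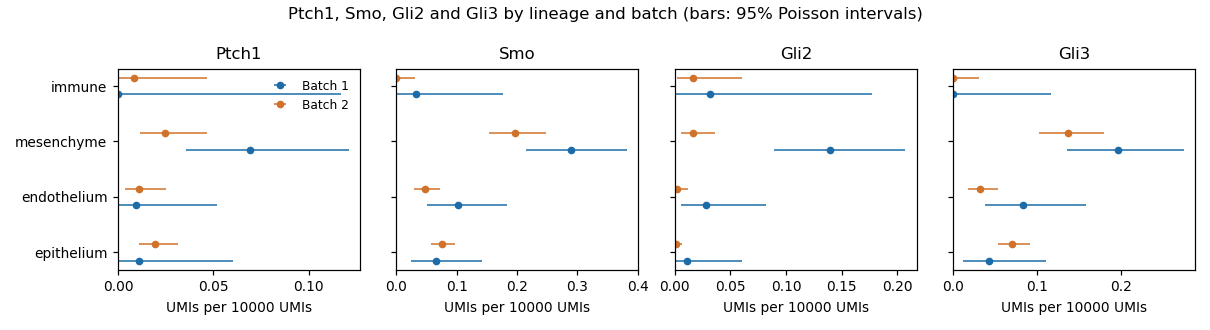
Levels of *Ptch1*, *Smo*, *Gli2* and *Gli3* (UMIs per 10000 UMIs, horizontal axes, each panel on its own scale) in 4 lineages, with 1 point per batch and 95% exact Poisson intervals as bars. Mesenchyme is highest for each gene in Batch 1, and its *Gli2* level was 0.139 in Batch 1 and 0.0164 in Batch 2.

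*Hhip*, the inhibitor that binds the ligand at the cell surface, was the most counted of the 7 genes and had the widest range among mesenchymal classes. It lies on chromosome 8 (79965851 to 80058006, minus strand) and gave 191 and 786 UMIs, of which 147 (77.0%) and 649 (82.6%) were mesenchymal. MyoFB held 3.27 per 10000 (2.16 to 4.76, 27 UMIs) and 4.26 (3.59 to 5.03, 141 UMIs), and smooth muscle 2.49 (1.68 to 3.55, 30 UMIs) and 2.57 (2.05 to 3.18, 85 UMIs). MatrixFB-1 held 0.670 (0.536 to 0.828, 86 UMIs) and 1.85 (1.67 to 2.04, 400 UMIs), and MatrixFB-2 0.210 (3 UMIs) and 0.597 (20 UMIs). Pericytes held 0 UMIs in Batch 1, which allows up to 0.402 per 10000, and 1 UMI in Batch 2 (0.0336).

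The order MyoFB, smooth muscle, MatrixFB-1, MatrixFB-2 held for *Hhip* in both batches. Pericytes came last in Batch 2, and their place relative to MatrixFB-2 could not be set in Batch 1. Intervals of MyoFB and smooth muscle overlapped in Batch 1 and were apart in Batch 2, while smooth muscle lay above MatrixFB-1, and MatrixFB-1 above MatrixFB-2, with separate intervals in Batch 2. In Batch 1 smooth muscle was apart from MatrixFB-1, and MatrixFB-1 and MatrixFB-2 overlapped. Detection was 22.9% and 35.6% of MyoFB cells (14.3% and 20.8% after thinning), 20 of 91 and 30.9% of smooth muscle cells, and 8.36% and 23.9% of MatrixFB-1 cells, against 0.568% and 0.952% of immune cells. The gap between batches in MatrixFB-1 was also seen inside 1 cluster, the *Mfap4*-led one, with 0.675 in Batch 1 and 1.95 in Batch 2.

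A stretch of the *Hhip* and *Ptch1* promoters is shown because both genes are classical GLI targets and were counted very differently here, with 191 and 786 UMIs for *Hhip* and 14 and 31 for *Ptch1*. RefSeq promoters (GRCm38.p6, 250 bases before to 50 after a transcript start, 300 in all) matched 5 of the 7 genes. The GLI consensus GACCACCCA (9 letters, searched on both strands) occurred in 83 of 32851 promoters (0.253%) and in 0 of these 5. The 250 bases before the start are printed 5′ to 3′ on the strand of the gene, at chr8:80058009-80058258 (minus strand) for *Hhip* and chr13:63565736-63565985 (minus strand) for *Ptch1*. Capitals mark the 9-letter stretch closest to the consensus, or the most upstream one where several match equally. The *Hhip* window adjoins the annotated 5′ end of the gene (80058006). The *Ptch1* window lies inside the annotated gene, before a start downstream of its 5′ end (63573598), so the windows are not like for like.
Hhip: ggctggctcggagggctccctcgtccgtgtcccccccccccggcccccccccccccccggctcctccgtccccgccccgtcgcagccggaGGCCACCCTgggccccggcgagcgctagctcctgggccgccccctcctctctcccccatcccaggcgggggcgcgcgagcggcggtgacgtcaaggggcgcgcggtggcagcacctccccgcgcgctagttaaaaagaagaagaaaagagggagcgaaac
Ptch1: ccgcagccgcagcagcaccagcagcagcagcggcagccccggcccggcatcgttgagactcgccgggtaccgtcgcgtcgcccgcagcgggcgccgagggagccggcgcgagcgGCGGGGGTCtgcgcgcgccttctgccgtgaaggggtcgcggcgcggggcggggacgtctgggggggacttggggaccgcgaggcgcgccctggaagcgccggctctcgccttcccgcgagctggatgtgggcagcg
The capitals match 7 of 9 letters for *Hhip*, where the stretch begins at position -160 from the start and reads as the consensus itself does, and 6 of 9 for *Ptch1*, where it begins at position -136 and lies on the other strand. GC content was 76.0% for *Hhip*, with 28 CpG dinucleotides, and 78.4% for *Ptch1*, with 41. Other stretches of the printed *Ptch1* bases match as many letters, so the place and strand of its capitals are not unique. A match of letters is a description of the sequence, and its absence from this window says nothing of sites elsewhere.

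UMIs were summed per lineage and batch and tested with edgeR's quasi-likelihood test. This asked whether the sending and the receiving sides differed by more than lineage differences varied between the batches. Epithelium exceeded mesenchyme in *Shh* and was lower in *Gli1*, *Hhip* and *Smo*. *Shh* was higher by a log2 fold change of 6.36 (SE 0.58, adjusted p = 2.1e-05), on 410 UMIs in epithelium against 4 in mesenchyme over both batches. *Gli1* differed by -5.01 (SE 0.59, adjusted p = 0.00011) and *Hhip* by -5.21 (SE 0.42, adjusted p = 1.1e-05). *Smo* differed by -1.34 (SE 0.43, adjusted p = 0.036), a call lost without the replicate block, with DESeq2 and with a 5% mitochondrial limit. *Gli3* differed by -1.02 (SE 0.49, adjusted p = 0.14) and was not called. With 5 of the 7 genes passing the filter on low counts, 1 was called higher and 3 lower in epithelium, against 18.4% and 15.4% of the 12014 genes tested. Genes could pass the filter through the lineage in which they are high, so this count gives no support for the members as a group. With 2 mice, the p-values measure only how differences between lineages or classes varied between these 2 batches. Shifts between the batches common to all groups are taken out by the replicate block.

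*Ptch1* and *Gli2* did not pass that filter. In a fit of all genes with at least 1 count, *Gli2* differed by -3.30 (SE 1.07, adjusted p = 0.014) and *Ptch1* by -0.86 (SE 0.87, adjusted p = 0.75) between epithelium and mesenchyme. The *Gli2* value rests on 2 epithelial UMIs against 30 mesenchymal ones, 24 of these from Batch 1.

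Mesenchyme was also compared with endothelium, the other large stromal lineage. *Gli1* was higher in mesenchyme by 4.64 (SE 0.56, adjusted p = 0.00018), *Hhip* by 2.75 (SE 0.34, adjusted p = 0.00019), *Smo* by 1.83 (SE 0.45, adjusted p = 0.013) and *Gli3* by 1.73 (SE 0.52, adjusted p = 0.037), all by edgeR. *Shh* was tested on 4 against 7 UMIs and was not called (adjusted p = 0.60). *Ptch1* and *Gli2* again did not pass the filter. In edgeR's fit without it they were not called, at 1.82 (SE 0.95, adjusted p = 0.28) and 2.38 (SE 0.97, adjusted p = 0.090). Thus 4 of the 5 tested genes were called higher in mesenchyme and 0 lower, against 13.5% and 13.6% of all genes tested. Genes could again pass the filter through the lineage where they are high, so this count gives no support for the members as a group. The *Smo* and *Gli3* calls were lost without the replicate block, and the *Gli3* call also with DESeq2 and with the 5% mitochondrial limit.

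Not all endothelial cells were poor in *Hhip*. Of the 23 and 87 endothelial *Hhip* UMIs, 15 and 66 lay in an unnamed *Fbln2*-led endothelial cluster of 28 and 61 cells, at 1.62 (0.909 to 2.68) and 1.89 (1.46 to 2.40) per 10000. Vascular endothelium, with 515 and 1393 cells, held 0.0897 (0.0387 to 0.177) and 0.0517 (0.0320 to 0.0790). The *Hhip* intervals of these groups were apart in both batches, and *Gli1* gave 0 UMIs in the *Fbln2*-led cluster in both. All 7 endothelial markers were detected in that cluster in both batches (54.1 and 45.6 per 10000 in sum, against 68.9 and 54.2 in vascular endothelium). Mesenchymal markers summed to 1.73 and 0.486 per 10000 there and to 5.73 and 2.00 in vascular endothelium. These sums are over the whole cluster, of which 17.9% and 32.8% of cells held an *Hhip* UMI.

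**Figure D3:**
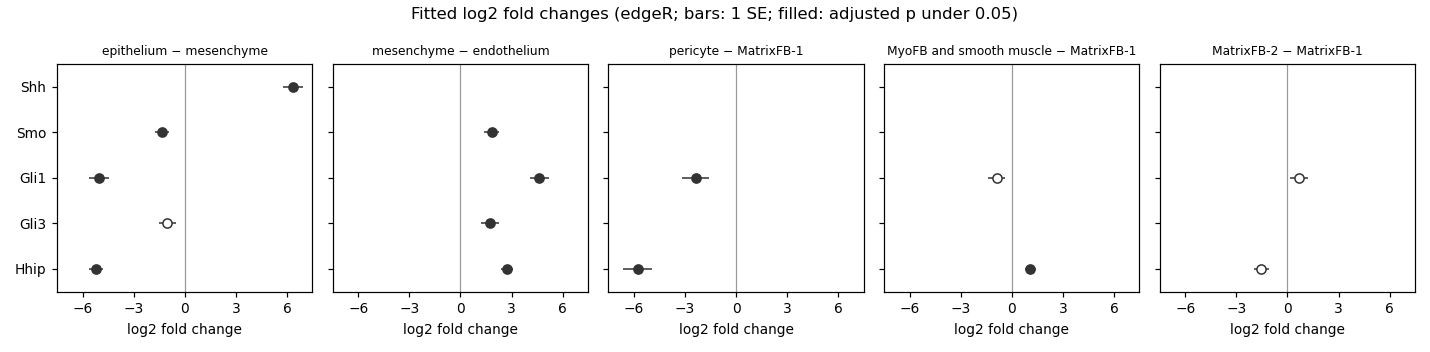
Fitted log2 fold changes (horizontal axes) of the members tested in 5 comparisons, with bars of 1 SE and filled points for an adjusted p under 0.05. *Shh* stands alone on the epithelial side at 6.36, and *Hhip* is lower in pericytes by the largest step within the mesenchyme, at -5.77.

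For the classes, a fit over 28 sums (14 classes in 2 batches) tested 3 of the 7 genes, *Shh*, *Gli1* and *Hhip*. The comparison of AT1 with AT2 asked where in the alveolar epithelium the ligand lies. *Shh* was higher in AT1 by 0.91 (SE 0.51), which did not pass the threshold by edgeR (adjusted p = 0.30), and with AT1 and AT2 alone in the fit the value was 1.00 with an adjusted p of 0.032. Thus 0 members were called, with 0 at an unadjusted p under 0.05 and 0 called by DESeq2, against 6.09% of all genes called higher and 7.27% lower. Pooled over batches, the AT1 level of *Shh* was 2.63 times that of AT2, with a counting interval of 1.82 to 3.78. *Hhip* was at 7 UMIs in AT1 and 14 in AT2, and *Gli1* at 2 and 3.

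The myofibroblast and smooth muscle classes were compared with MatrixFB-1, the most numerous receiving cells. *Hhip* was higher by 1.08 (SE 0.32, adjusted p = 0.017), and *Gli1* differed by -0.89 (SE 0.49, adjusted p = 0.28), both by edgeR. With 1 batch at a time, without a test, the *Hhip* difference was 1.60 in Batch 1 and 0.50 in Batch 2. *Hhip* was the 1 member called, higher, and 0 were called lower, against 6.00% and 8.66% of all genes. The same limit of the filter holds for this count. The *Hhip* call was lost without the replicate block (adjusted p = 0.16), with DESeq2 (adjusted p = 0.078) and without the low-count filter (adjusted p = 0.065). Of all calls in this comparison 40.9% were higher, and 53.0% with DESeq2, while the median log2 fold change of all genes was -0.08, and 0.11 with DESeq2.

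In the collagen-rich MatrixFB-2 cells neither *Hhip* nor *Gli1* passed the threshold. *Hhip* differed from MatrixFB-1 by -1.53 (SE 0.46, adjusted p = 0.058) and *Gli1* by 0.68 (SE 0.51, adjusted p = 0.62) by edgeR. Here 0 members were called, against 2.24% of all genes higher and 1.09% lower; 1 member, *Hhip*, had an unadjusted p under 0.05 with edgeR and with DESeq2, which called 0. *Hhip* passed the threshold without the low-count filter (-1.64, adjusted p = 0.037) and with the 2 classes alone (-1.67, adjusted p = 0.031). The share of calls that were higher was 67.2%, and 82.6% with DESeq2, whose median over all genes was 0.00 against -0.12.

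Pericytes held few *Hhip* and *Gli1* transcripts, and both were called lower than in MatrixFB-1. *Hhip* gave 1 UMI in 218 cells against 486 UMIs in MatrixFB-1, a level 52.5 times higher in MatrixFB-1 when pooled over batches, with a counting interval of 9.39 to 2080. By batch, MatrixFB-1 held 0.670 where the pericyte 0 allows up to 0.402 in Batch 1, and 1.85 against 0.0336 in Batch 2. The fitted difference was -5.77 (SE 0.86, adjusted p = 9.6e-06). *Gli1* differed by -2.37 (SE 0.78, adjusted p = 0.042), on 4 UMIs against 173. Of the 3 members tested, 2 were called lower and 0 higher, against 6.80% and 5.76% of all genes. *Shh* was tested on 1 against 2 UMIs and was not called. Below the filter, pericytes held 6 *Smo* UMIs against 73 in MatrixFB-1, and 2 of *Ptch1* against 17. They held 1 of *Gli3* against 55 and 0 of *Gli2* against 22. In this order the pericyte level was 0.760 (counting interval 0.270 to 1.74), 1.09 (0.122 to 4.58), 0.168 (0.00418 to 0.977) and 0 (0 to 1.69) times that of MatrixFB-1. Members could pass the filter through a class where they are high, so this count likewise gives no support for them as a group. The *Gli1* call was lost without the replicate block (adjusted p = 0.11), with DESeq2 (0.11), at the 5% mitochondrial limit (0.26) and without cells that held markers of a second lineage (0.051). The share of calls that were higher was 45.9%, and 60.9% with DESeq2, whose median over all genes was 0.10 against -0.13.

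A list of 40 other genes of the pathway was counted in the same fits. These genes too could pass the filter through the group where they are high, so their counts give no support for the list as a whole. Between epithelium and mesenchyme, 27 were tested, and 3 were called higher in epithelium and 13 lower, beside 18.4% and 15.4% of all genes. The median log2 fold change of the 27 was -0.31, beside 0.01 over all genes. Of 5 listed receptor and co-receptor genes, 3 were tested and all 3 were lower in epithelium, with log2 fold changes for *Boc* of -5.14 (adjusted p = 1.4e-05), *Gas1* of -5.36 (adjusted p = 1.6e-05) and *Gpc3* of -1.59 (adjusted p = 0.014). *Boc* and *Gas1* encode co-receptors that help present the ligand to Ptch1, whereas *Gpc3* encodes a glypican that competes for the ligand. *Scube2*, which aids ligand release, differed by -4.83 (adjusted p = 4.3e-05), with 0 and 15 UMIs in epithelium and 162 and 173 in mesenchyme. A gene of ligand release was therefore found mainly outside the ligand-making lineage.

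Among 12 transducers tested, 1 was called higher in epithelium, the kinase *Stk36* (2.98, adjusted p = 0.0021), and 3 lower: the ciliary genes *Evc2* (-2.20) and *Arl13b* (-1.29), and the kinase *Csnk1a1* (-0.58). With DESeq2 the *Evc2* and *Csnk1a1* calls were lost. Of 12 genes listed as pathway targets in mesenchyme, 9 were tested and 6 were lower in epithelium, among them *Foxf1* (-2.47), *Osr1* (-5.77) and *Wnt5a* (-4.92), and 1, the cell cycle gene *Ccnd1*, was higher (1.51). *Foxf2* (-4.83), *Hsd11b1* (-5.15) and *Tgfbi* (-4.67) were the others.

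The endothelium held another ligand. *Dhh* gave 30 and 80 UMIs in endothelium (0.279 and 0.173 per 10000) against 1 and 2 in mesenchyme and 3 and 21 in epithelium. Mesenchyme differed from endothelium by -5.09 (SE 0.61, adjusted p = 0.00028) and epithelium from mesenchyme by 2.48 (SE 0.75, adjusted p = 0.030), a call lost with DESeq2. In the comparison of mesenchyme with endothelium, 13 of 27 list genes were called higher in mesenchyme and 3 lower. Of all genes tested, 13.5% were called higher and 13.6% lower. The median of the list was 0.77 beside 0.04 over all genes. DESeq2 did not call *Evc2* and *Kif3a*, both among the 13. The 3 lower genes were *Dhh*, *Ccnd1* (-3.69) and *Foxf1* (-2.38), a forkhead factor at 2.94 and 2.88 per 10000 in endothelium and 0.660 and 0.479 in mesenchyme.

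**Figure D4:**
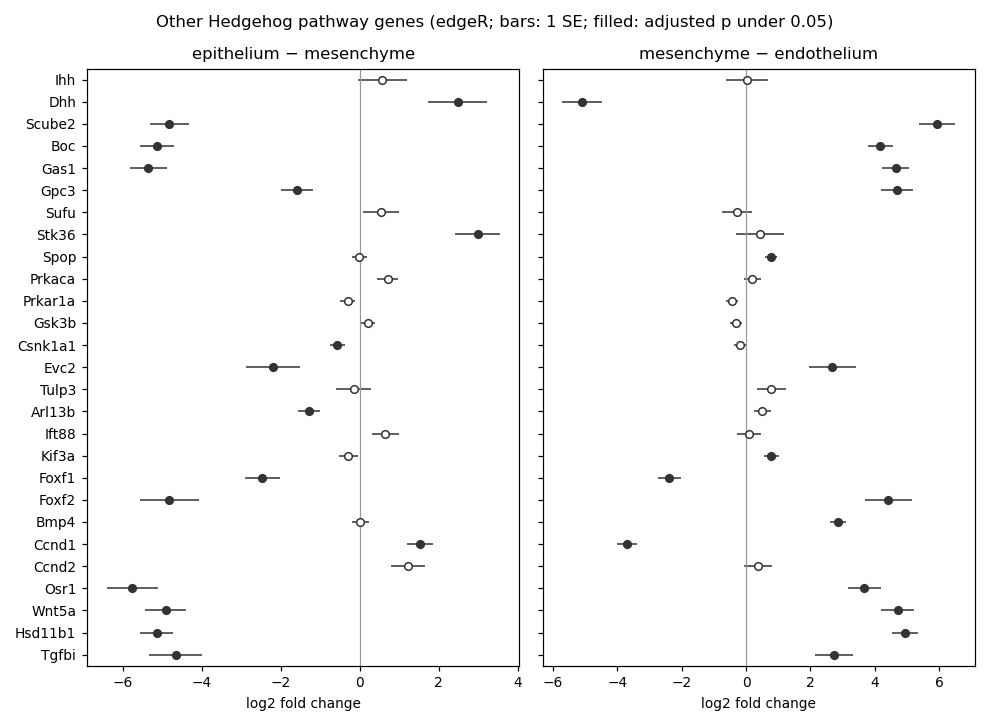
Fitted log2 fold changes (horizontal axes, bars of 1 SE, filled for an adjusted p under 0.05) of 27 other pathway genes between epithelium and mesenchyme and between mesenchyme and endothelium. *Boc*, *Gas1*, *Gpc3* and *Scube2* lie on the mesenchymal side in both panels, and *Dhh* lies on the endothelial side at -5.09.

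The list was also counted between the mesenchymal classes. Of 21 tested in the class fit, 3 were higher and 3 lower in MyoFB and smooth muscle than in MatrixFB-1, beside 6.00% and 8.66% of all genes, with a median of -0.16 beside -0.08 over all genes. *Foxf1* (1.77, adjusted p = 0.0022) and *Wnt5a* (2.16, adjusted p = 8.7e-05) were higher, and *Gpc3* (-3.82) and *Hsd11b1* (-6.72) were lower. *Scube2* gave 0 UMIs in MyoFB and in smooth muscle in both batches, against 161 and 163 UMIs in MatrixFB-1. *Tgfbi*, the remaining gene called higher, was also a marker by which MyoFB was named and is no finding here. In MatrixFB-2, 2 genes were called higher than in MatrixFB-1, *Gpc3* (1.72) and *Osr1* (2.68), and 3 lower, *Scube2* (1 and 5 UMIs), *Foxf2* (-4.02) and *Hsd11b1* (-2.36), beside 2.24% and 1.09% of all genes, with a median of -0.15 beside -0.12. DESeq2 called 0 of these 5.

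Pericytes were higher than MatrixFB-1 in *Foxf1* (2.62, adjusted p = 0.00012) and in the cyclin gene *Ccnd2* (2.34, adjusted p = 0.00055), and 4 genes were lower, beside 5.76% and 6.80% of all genes, with a median of -0.08 over the list and -0.13 over all genes. The lower genes were *Scube2* (0 and 3 UMIs), *Boc* (0 and 1 UMIs), *Gpc3* (-2.26) and *Hsd11b1* (-2.10), the last not called by DESeq2. *Boc* thus shared the low counts of *Gli1* and *Hhip* in this class, while *Gas1* was present at 1.47 and 2.38 per 10000. Between AT1 and AT2, 0 of 21 list genes were called by edgeR and 0 by DESeq2. Of all genes, edgeR called 6.09% higher and 7.27% lower. Of the 19 list genes above 3 UMIs in some sum, 5 had an unadjusted p under 0.05 with edgeR and 4 with DESeq2. The median of the 21 was 0.55 beside -0.06 over all genes.

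The genes whose levels followed the members most closely over the 14 classes were named from 6049 candidates by the lower of the 2 batches' Pearson correlations. For *Shh* they were *Gprc5a* (0.934 and 0.987), the epithelial adhesion gene *Epcam* (0.932 and 0.940) and *Mal2* (0.932 and 0.981). For *Gli1* they were *Bicc1* (0.946 and 0.971), the co-receptor gene *Boc* (0.956 and 0.913) and *Lox*, which encodes a collagen cross-linking enzyme (0.882 and 0.908). For *Hhip* they were the angiotensinogen gene *Agt* (0.902 and 0.962), the growth factor gene *Fgf7* (0.900 and 0.966) and the actin-associated *Palld* (0.900 and 0.888). *Smo* was followed by *Bicc1* (0.831 and 0.935), *Lgalsl* and *Fibin*, and *Gli3* by *Pamr1* (0.870 and 0.893), *Gpx7* and *B3gnt9*. *Epcam* and *Agt* were also on the marker lists used to name epithelium and MyoFB, so their likeness is no finding here. The points share libraries and depth, and classes are not independent samples, so no p is given.

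Receiving genes were seldom caught in the same cell. In MatrixFB-1, 4 cells of Batch 1 held both *Hhip* and *Gli1*, and 18 cells of Batch 2 did, where the product of the shares of cells with each gene gives 6.61 and 19.1 cells. In MyoFB the counts were 2 and 5 cells beside products of 1.37 and 3.92, and in smooth muscle 2 and 3 beside 0.879 and 1.24. In MatrixFB-2 they were 1 and 6 cells beside 0.246 and 2.37. In both batches the counts lay below the products in MatrixFB-1 and above them in MyoFB, smooth muscle and MatrixFB-2. Each gap was a few cells at most, and whether the 2 genes go together in single cells was not tested.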

How the data were processed

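Single cells of whole lung from 2 batches (1 mouse each) were analysed. Per the labels and the study's methods, the authors aligned Drop-seq reads to mm10 with Bowtie2 2.2.7 and deposited UMI counts per gene and cell over exons, with no normalization, and without the 10% mitochondrial limit. That limit and a minimum of 500 genes per cell were used here. Cells were clustered (1500 variable genes, 30 components scaled within batch, 20 neighbours, Leiden resolution 1.5, seed 1; scikit-learn 1.9.0, leidenalg 0.10.2, igraph 0.11.9, Python 3.11.15) without Hedgehog, pathway, mitochondrial or hemoglobin genes. Clusters were named from markers; 7 clusters with 461 cells that mixed markers or lacked them stayed unnamed, and a difference from the study may come from these rebuilt names. No doublet caller was run; 332 cells with at least 3 UMIs of a second lineage's markers were left out in an alternative.

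UMIs were summed per lineage or class (at least 20 cells in each batch) and batch, and tested with edgeR 4.0.16 in R 4.3.3 (TMM, filterByExpr, quasi-likelihood, Benjamini-Hochberg over all genes tested, threshold 0.05), with the batch as a replicate block; DESeq2 1.42.0 was an alternative. The block pairs classes of the same mouse. Over 91 pairs of classes the deviations of same-batch sums correlated at 0.0427 to 0.543 (median 0.171, 75 over 0.1, 7864 genes). For thinned shares, UMIs were drawn down to 600 per cell, and 0 cells were too shallow. Fits were checked on simulated data. Levels of 0 allow 3 UMIs.

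The members were given by name. Those with too few UMIs are not given a value in every comparison. Members and lists were chosen with earlier results of these data known. Other pathway genes (39 of 40 found) were counted by direction and named where called. The 3 most similar genes were named for members with at least 100 UMIs. Coordinates are from GENCODE vM21. Other alternatives were no low-count filter, only the classes compared, a 5% mitochondrial limit (3571 cells over it), each batch left out, and the cell types listed for Batch 1 (1998 cells).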

Additional observations from a re-analysis of the deposited data

Results flagged for a closer look

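All 7 genes also gave UMIs in the 1940 Batch 2 cells that were over the mitochondrial limit and outside every comparison (5030373 UMIs, median 1957 per cell), above the 0.00596 per 10000 that 3 UMIs would give. *Shh* gave 79 UMIs there (0.157 per 10000, 0.124 to 0.196) and *Hhip* 147 (0.292, 0.247 to 0.343). *Gli1* gave 36 UMIs (0.0716), *Smo* 29 (0.0576), *Gli3* 29 (0.0576), *Ptch1* 10 (0.0199) and *Gli2* 5 (0.00994). These cells were not assigned to classes.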

How the results depend on the processing

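*Ptch1*, *Gli2* and, between classes, *Smo* and *Gli3* had too few UMIs for the low-count filter. The counts of genes called were 4058 for epithelium against mesenchyme, 3251 for mesenchyme against endothelium, 1051 for AT1 against AT2, 1153 for MyoFB and smooth muscle, 262 for MatrixFB-2 and 988 for pericytes, the last 3 against MatrixFB-1. Without the replicate block they were 2701, 2004, 534, 696, 66 and 501. With only the groups compared, AT1 against AT2 gave 1677, and at the 5% mitochondrial limit pericytes gave 572. The cause of these shifts was not tested.

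Calls were lost as follows. *Smo* in epithelium against mesenchyme was -1.50 without the replicate block, -1.40 with DESeq2 and -1.15 at the 5% limit. In mesenchyme against endothelium *Smo* was 1.84 without the block, and *Gli3* was 1.72 without it, 1.71 with DESeq2 and 1.41 at the 5% limit. *Hhip* in MyoFB and smooth muscle was 1.04 without the block, 1.23 with DESeq2 and 0.96 without the low-count filter. *Gli1* in pericytes was -2.62 without the block, -2.22 with DESeq2, -2.23 at the 5% limit and -2.34 without cells holding a second lineage's markers. The block changed no other member's call. With the types listed for Batch 1, which give a value with no test, *Gli1* and *Hhip* were -3.20 and -3.31 in epithelium against mesenchyme, *Gli1* was 3.65 in mesenchyme against endothelium, and *Hhip* was -3.23 in pericytes.

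Leaving out 1 batch gives a value with no test. For epithelium against mesenchyme the values were 4.74 to 6.78 for *Shh*, -4.79 to -3.44 for *Gli1* and -5.39 to -3.61 for *Hhip*. For mesenchyme against endothelium they were 1.40 to 1.81 for *Smo*, 4.07 to 4.15 for *Gli1* and 1.13 to 1.77 for *Gli3*. For MyoFB and smooth muscle the *Hhip* values were 0.50 to 1.60. In pericytes they were -4.50 to -1.65 for *Gli1* and -5.03 to -4.50 for *Hhip*. No called fold change of a member reversed under any alternative run. Changes of sign in members that were not called were not counted as reversals. Of 33 detection shares, 21 moved with thinning to 600 UMIs and 25 with a minimum of 2 UMIs; of 33 levels, 5 moved at the 5% limit and 13 with the listed types.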

Other observations

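A small unnamed cluster led by *C3* and *Upk3b*, a mesothelial gene, held *Hhip* at 1.80 per 10000 (0.779 to 3.56, 8 UMIs in 21 cells) in Batch 1 and 2.90 (1.50 to 5.06, 12 UMIs in 11 cells) in Batch 2, above the rebuilt MatrixFB-2 class in both batches with separate intervals. Of the 79 Batch 1 cells listed as MatrixFB-2, 19 lay in this cluster and 47 in the rebuilt class. It also held 5 *Smo* and 4 *Gli3* UMIs in Batch 1, and 1 *Gli1* UMI in each batch. A *Tnnt2*-led mural cluster of 13 and 85 cells, by contrast, held 1 and 2 *Hhip* UMIs.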
